A study of Drosophila melanogaster with 2 samples.

Results

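Transfer RNA (tRNA) genes were taken as the 290 genes of biotype tRNA on the 6 nuclear chromosome arms in the FlyBase annotation of the dm6 genome, out of 18164 annotated genes other than transposable elements. The 22 mitochondrial tRNA genes were left out. A tRNA gene counted as occupied where the summit of a peak fell no farther than 1000 bp from its start, in either direction, and the count was made separately in 4 peak lists. The lists come from chromatin immunoprecipitation with sequencing (ChIP-seq) of whole Drosophila melanogaster embryos aged 8 to 18 h, of a transgenic line in which the forkhead factor fd3F is fused to green fluorescent protein (GFP) at its C-terminus. Chromatin was sheared by sonication to 200 to 800 bp and precipitated with an antibody against GFP, per the sample descriptions (another label field gives the antibody as fd3F), and the peaks were called against a control that is not used here. The 2 biological replicates, numbered 1 and 3, form a single group (n = 2), with no untagged or mutant flies beside it, so no contrast between conditions exists and no test was made. The labels give neither the promoter that drives the fusion nor the cells that express it, and fd3F is known from a small set of sensory neurons, which a whole embryo dilutes among all other cells.

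The relaxed lists of replicate 1, of replicate 3 and of both replicates pooled held 30000 peaks each, and the reproducible list held 3917. The reproducible list was identical to the 3917 pooled peaks of highest signal. Ranks below count from the highest signal in a list, and the signal is the peak caller's own value, on a scale that belongs to that list. The lists carry no read counts, so sequencing depth is unknown and no tRNA gene's absence from a list can be read as absence of binding.

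tRNA genes are transcribed by RNA polymerase III, whose promoter elements lie inside the gene: the A box and the B box are bound by the factor TFIIIC, which places TFIIIB just upstream of the start. tRNA genes commonly occur in clusters and in identical copies. fd3F belongs to the forkhead family, whose members typically bind TGTTTAC and its relatives, and it is known from genetics for switching on genes of motile cilia in the chordotonal neurons.

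The genes and summits below are printed because they carry strong reproducible peaks that lie nearer to a tRNA start than to the start of any gene of another class. The gene sequences, from the Release 6 assembly (dm6), run in the direction of transcription with the A box (TNGNNNAG, starting at positions 6 to 9) and the B box (GTTCNANNC) in capitals. The Tyr-GTA genes lie at chr3R:8668612-8668705 and chr3R:8669081-8669174 on the minus strand, Leu-TAA-2-1 at chr3R:24112964-24113047 on the plus strand and Gln-TTG-2-1 at chrX:3427452-3427523 on the minus strand. Gln-TTG-2-1 has no match to the A box as spelled here.
tRNA:Tyr-GTA-1-7: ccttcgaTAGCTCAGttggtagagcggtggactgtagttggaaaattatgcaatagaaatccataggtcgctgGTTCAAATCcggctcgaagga
tRNA:Tyr-GTA-1-8: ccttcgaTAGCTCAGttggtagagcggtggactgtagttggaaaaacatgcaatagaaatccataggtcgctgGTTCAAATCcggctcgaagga
tRNA:Leu-TAA-2-1: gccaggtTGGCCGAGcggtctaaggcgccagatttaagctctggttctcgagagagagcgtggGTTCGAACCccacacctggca
tRNA:Gln-TTG-2-1: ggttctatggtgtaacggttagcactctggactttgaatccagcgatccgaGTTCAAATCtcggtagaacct
The sequence under the summit itself is a different stretch of DNA, upstream of the gene. Each window below holds 50 bp to each side of a summit on the strand of its tRNA gene, with matches to the forkhead motif TNTTTAC in capitals. The windows are chr3R:8669330-8669430 for the summit shared by the Tyr-GTA genes, chr3R:24112707-24112807 for Leu-TAA-2-1, chrX:3427659-3427759 for Gln-TTG-2-1 and chr2L:14519341-14519441 for Gly-GCC-1-6, which is added as a window with a match.
Tyr-GTA summit: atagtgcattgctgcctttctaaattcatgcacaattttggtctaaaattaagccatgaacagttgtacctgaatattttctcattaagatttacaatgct
Leu-TAA-2-1 summit: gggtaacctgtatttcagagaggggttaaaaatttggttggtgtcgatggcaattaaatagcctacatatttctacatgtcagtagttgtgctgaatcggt
Gln-TTG-2-1 summit: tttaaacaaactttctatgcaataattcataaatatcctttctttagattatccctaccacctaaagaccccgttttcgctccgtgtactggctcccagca
Gly-GCC-1-6 summit: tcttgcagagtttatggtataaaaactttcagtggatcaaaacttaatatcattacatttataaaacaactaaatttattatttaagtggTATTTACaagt
None of these windows overlaps a printed gene, and the first 3 hold no TNTTTAC.

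tRNA genes had a peak nearby less often than genes in general among the strongest peaks, and more often once weak peaks were counted. In the reproducible list 22 of the 290 genes (7.59%, exact 95% interval 4.82 to 11.3) had a summit, against 18.1% of all 18164 genes, or 16.5% when every gene is given 1 start. In the pooled list 195 (67.2%, 61.5 to 72.6) had one, against 54.7% of all genes, or 53.5% with 1 start each. Intervals here and below are Clopper-Pearson intervals that cover counting error only, and they take genes as independent, which clustered genes sharing a summit are not.

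The embryo collections differed in how many tRNA genes they covered. Replicate 1 had a summit at 205 genes (70.7%, against 56.1% of all genes) and replicate 3 at 150 (51.7%, against 53.3%). The share was thus above that of all genes in replicate 1 and the pooled list. In replicate 3 it was slightly below the share over any start. It was level with the 51.4% of all other genes when each is given 1 start, as every tRNA gene has. Both replicate lists had a summit at 124 genes (42.8%, against 42.0%), a share close to that of genes in general. Of the rest, 81 had a summit in replicate 1 only, of which 62 also had one in the pooled list, and 26 in replicate 3 only, of which 10 did. No list had a summit at 55 genes.

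Among the best 3917 peaks of a single replicate, tRNA genes were below the background in both. Replicate 1 had 27 tRNA genes (9.31%, against 17.7%) and replicate 3 had 24 (8.28%, against 18.4%). Counting instead all peaks with a deposited q-value of at most 0.05, 72 tRNA genes had a summit in the pooled list (24.8%, against 33.3%), 104 in replicate 1 (35.9%, against 35.8%) and 43 in replicate 3 (14.8%, against 29.3%). In the pooled list the share above that of all genes was thus reached only with peaks of weaker q-values.

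**Figure D1:**
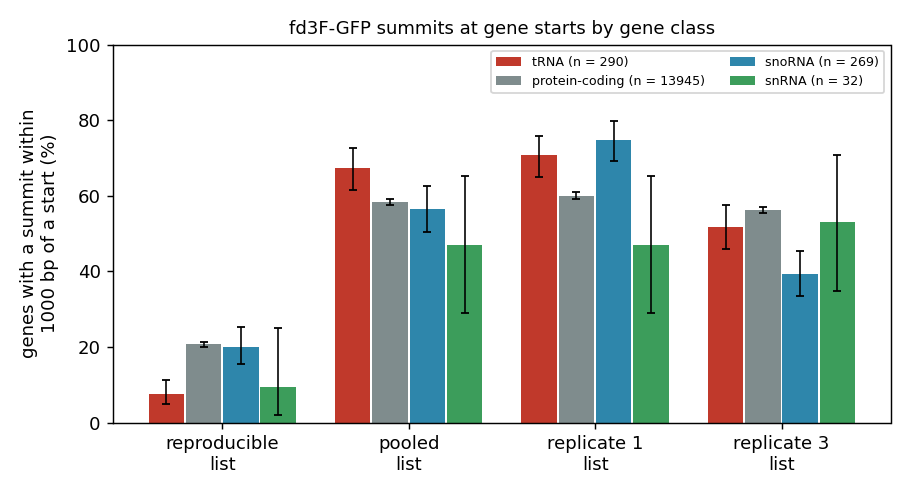
Share of genes with a summit within 1000 bp of a start (vertical axis, percent) in the reproducible, pooled, replicate 1 and replicate 3 lists, for tRNA, protein-coding, snoRNA and snRNA genes; bars are shares and lines exact 95% intervals. tRNA genes stand at 7.59% in the reproducible list, below the 20.8% of protein-coding genes, and at 67.2% in the pooled list, above their 58.4%.

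Other classes of genes moved between the lists in different ways. Protein-coding genes had a summit in 20.8%, 58.4%, 60.1% and 56.2% of 13945 genes in the reproducible, pooled, replicate 1 and replicate 3 lists. Of 269 snoRNA genes, whose RNAs guide modification of other RNAs, 20.1%, 56.5%, 74.7% and 39.4% had one, so the gap between replicates was wider there than for tRNA genes. Of 3261 other noncoding RNA genes, mostly lncRNA and miRNA genes, 9.20%, 42.5%, 40.8% and 46.5% had one, with replicate 3 above replicate 1, the opposite order to tRNA genes. Many snoRNA genes lie inside introns of host genes, and protein-coding genes often have several starts.

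The peaks near tRNA genes ranked low. In these ranks every gene is given 1 start. The best pooled summit of a tRNA gene had a median rank of 13731 (quartiles 7182 and 19915), against 7761 for all other genes that had one. In replicate 1 the median ranks were 11404 and 8113, and in replicate 3 they were 11896 and 7358. Only 22 of the 195 genes (11.3%) had a best pooled summit within the first 3917, against 31.3% for other genes, and 87 (44.6%) had it beyond rank 15000, against 26.3%.

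Counted over peaks instead of genes, tRNA genes took a small share of every list. Windows of 1000 bp around all tRNA starts cover 385682 bp, which is 0.288% of the 6 arms. They held 17 of the 3917 reproducible summits (0.434%), 178 of the pooled summits (0.593%), 207 of replicate 1 (0.690%) and 135 of replicate 3 (0.450%). The strongest, middle and weakest 10000 pooled peaks held 51, 62 and 65 of these summits. The same counts were 63, 81 and 63 in replicate 1 and 47, 45 and 43 in replicate 3, so the small rise towards weak peaks in the pooled list was not repeated in either collection. In finer steps of 3000 peaks the counts varied more, from 13 to 30 in the pooled list, 13 to 29 in replicate 1 and 6 to 18 in replicate 3, with no steady trend.

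The strongest summits near tRNA genes mostly had a protein-coding start nearby too. Of the 13 summits near a tRNA gene among the first 3000 pooled peaks, 11 were also within 1000 bp of a protein-coding start, as were 60.1% of all peaks in that range. In the next 3000 pooled peaks it was 1 of 14, against 49.0% of all peaks, and in the later steps of 3000 it was between 2 of 13 and 6 of 17. In replicate 1 the first 3000 peaks held 14 such summits, 11 of them near a protein-coding start, and in replicate 3 they held 13, 10 of them near one. The next 3000 peaks had 5 of 18 and 2 of 12. Over the whole lists, 31.5% of the 178 pooled summits near a tRNA gene were also near a protein-coding start, against 38.7% of all pooled summits. The shares were 32.9% against 41.7% in replicate 1 and 30.4% against 33.0% in replicate 3.

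The 22 tRNA genes of the reproducible list shared 17 summits at 17 loci and carried 14 amino acids. All 22 had a peak in each replicate, and 20 were among the best 3917 of both. Both counts follow in part from the choice of the list, which was made for agreement between these same replicates. For 12 genes the summit was nearer to a tRNA start than to the start of any gene of another class, and for 10 it was nearer to another gene. For 15 genes a protein-coding start was no more than 1000 bp from the summit.

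The strongest summit belonged to the tyrosine genes Tyr-GTA-1-8 and Tyr-GTA-1-7, which lie within CG8036. Its signal was 581 (rank 307) in the pooled list, 295 (rank 315) in replicate 1 and 279 (rank 346) in replicate 3. It lay 206 bp upstream of Tyr-GTA-1-8, 675 bp upstream of Tyr-GTA-1-7 and 238 bp from a start of CG8036. The replicate summits were 2 bp apart, at 205 and 207 bp upstream of Tyr-GTA-1-8, so the position was closely repeated, and whether the summit belongs to the tRNA genes or to CG8036 cannot be told apart by distance.

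The next summits lay closer to protein-coding starts. The valine gene Val-TAC-1-1 had a signal of 568 (rank 326), 301 in replicate 1 and 275 in replicate 3, from a summit 809 bp upstream that was 188 bp from a start shared by lama and CG46456. The aspartate genes Asp-GTC-1-4 and Asp-GTC-1-5 shared a summit of signal 395 (rank 648), 104 bp from a start of Sema1a, an axon guidance gene. The shared summit of Gly-GCC-1-9 and Trp-CCA-2-2 (signal 284, rank 1160) was 20 bp from a start of CG30122, and that of Phe-GAA-1-2 (263, rank 1288) was 15 bp from a start of RpL17, a ribosomal protein gene. At each of these summits the start of a protein-coding gene was nearer than the tRNA gene.

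A smaller number lay farther from other starts. The arginine genes Arg-CCT-1-2 and Arg-CCT-1-3, divergent neighbours, shared a summit of signal 343 (rank 839) that lay upstream of both, at 213 and 238 bp. It had a signal of 199 (rank 664) in replicate 1 and 156 (rank 998) in replicate 3, and the nearest start of another class was 4422 bp away. The leucine gene Leu-TAA-2-1, alone in its locus, had a summit 207 bp upstream with a signal of 292 (rank 1114), 158 in replicate 1 and 138 in replicate 3, and a start of CG13605 lay 368 bp from it.

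The glutamine gene Gln-TTG-2-1, on X inside CG12535, had a summit 186 bp upstream with a signal of 169 (rank 2462). Its ranks were 2987 in replicate 1 and 2167 in replicate 3, and the nearest other start was 8098 bp away. The proline gene Pro-AGG-1-1 had a summit 350 bp upstream (signal 139, rank 3082). The summits of Thr-AGT-1-1, Gly-GCC-1-6 and Glu-CTC-3-1 were farther off, at 921 bp downstream, 700 bp upstream and 896 bp upstream, with signals of 137, 126 and 118. Gly-GCC-1-6 and Glu-CTC-3-1 are the 2 genes that were outside the best 3917 in 1 replicate, at rank 5004 in replicate 3 and rank 5301 in replicate 1.

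The other reproducible members had signals between those of Phe-GAA-1-2 and Gln-TTG-2-1. Thr-AGT-1-4 had a summit of signal 215 that was 141 bp from a start of Fntb, a farnesyltransferase subunit gene. Val-CAC-2-5, inside Naam, had 195, and Gly-GCC-1-3 had 192 from a summit 891 bp upstream. The histidine genes His-GTG-1-2 and His-GTG-1-3 shared a summit of 191, 95 bp from a start of CG8490 and 155 bp upstream of the nearer tRNA gene. Ile-AAT-1-9 had 174 from a summit 589 bp upstream. Across the 22 genes the summit was upstream for 16 and within 250 bp for 6, and for none was it inside the gene or within 100 bp of it.

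**Figure D2:**
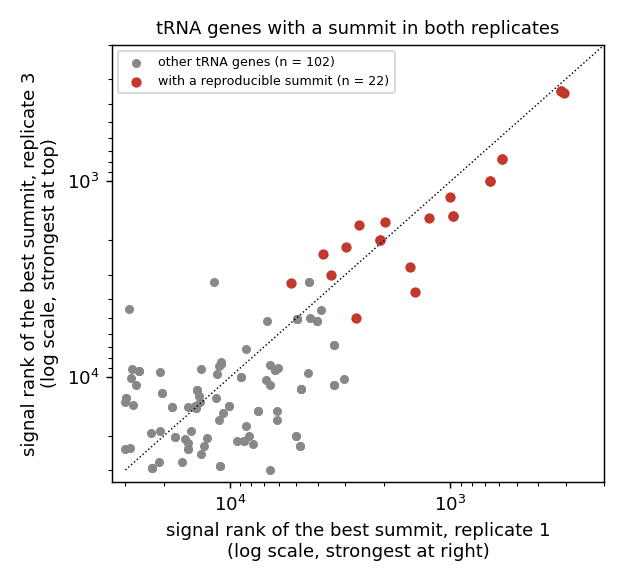
Signal rank of the best summit in replicate 1 (horizontal) and replicate 3 (vertical), both on log scales with the strongest ranks at right and top, for the 124 tRNA genes with a summit in both lists; the dotted line marks equal ranks. The 22 genes of the reproducible list lie towards the upper right along the line, and the remaining genes spread widely at weaker ranks.

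For the 124 genes with a summit in both collections, the strength of the best summit was related between them. Spearman's rho of the ranks was 0.655 and Pearson's r of log2 signal was 0.837, given as descriptions because genes in a cluster share summits and the strongest peaks were called in both. The median ranks were 8447 in replicate 1 and 11028 in replicate 3. The best summits of the same gene lay a median of 139 bp apart, and for 53 genes (42.7%) within 100 bp. Genes with a summit in replicate 1 only had a median rank of 15158, and those in replicate 3 only 18010.5, so genes found once had weaker summits than genes found in both.

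Summits were not centred on the tRNA genes, where the A and B boxes lie. The nearest pooled summit was a median of 361 bp from the start (quartiles 237.5 and 605), with 288 bp in replicate 1 and 432.5 bp in replicate 3. It was upstream for 103 of 195 genes (52.8%), and for 11 of the 14 genes whose nearest summit was among the first 3917. A pooled summit lay inside the gene for 9 genes, a replicate 1 summit for 10 and a replicate 3 summit for 4, and no gene had one inside in both replicates. The best of the 9 pooled summits had rank 13222. tRNA genes are short, with a median of 73 bp, so a margin of 100 bp on either side was also counted: 21, 36 and 11 genes had a summit in the gene or within that margin.

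**Figure D3:**
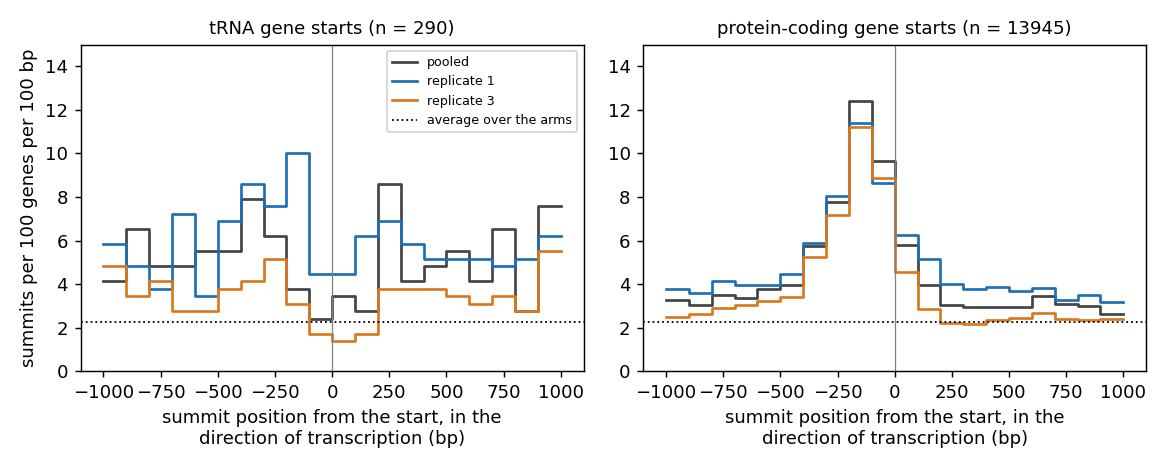
Summits per 100 genes in bins of 100 bp (vertical) by position from the start in the direction of transcription (horizontal, bp), for tRNA genes (left) and protein-coding genes (right), in the pooled, replicate 1 and replicate 3 lists; the dotted line is the average over the arms. Protein-coding starts show a maximum 100 to 200 bp upstream in all 3 lists. For tRNA genes replicate 1 has its maximum in that bin too, at 10 per 100 genes against 11.4. The tRNA maxima of the pooled and replicate 3 lists lie 200 to 300 bp (8.62) and 900 to 1000 bp (5.52) downstream. Around tRNA starts all 3 lines are lower in the 100 bp to each side of the start than some 200 to 400 bp away. A summit counts once for each gene in range.

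Close to the start, tRNA genes had fewer summits than protein-coding genes. Here a summit counts once for each gene in range, in both classes. The 296 pooled counts at tRNA genes thus came from 178 summits, though the 36 counts within 200 bp came from 35. Per 100 tRNA genes there were 12.4 pooled summits within 200 bp of the start, against 31.9 per 100 protein-coding genes with 1 start each. Replicate 1 had 25.2 against 31.6 and replicate 3 had 7.93 against 27.6. From 200 to 400 bp tRNA genes had more summits in the pooled and replicate 1 lists and about as many in replicate 3, with 26.9, 29.3 and 17.2 summits per 100 tRNA genes in the pooled, replicate 1 and replicate 3 lists, against 19.5, 21.8 and 16.8. From 400 to 1000 bp tRNA genes had more in all 3 lists, with 62.8, 63.4 and 43.4 against 38.9, 45.1 and 32.2. Among the 107 tRNA genes alone in their locus, the counts within 200 bp were 14.0, 24.3 and 11.2 per 100 genes, each below the protein-coding value as well. From 200 to 400 bp these lone genes had 18.7, 17.8 and 17.8, so the higher pooled and replicate 1 counts at that range were not present among them. From 400 to 1000 bp they had 46.7, 50.5 and 43.0. Most weak peaks have a set width of 376 bp in the pooled list, 360 bp in replicate 1 and 370 bp in replicate 3, so their summits may be less exactly placed than those of narrower peaks.

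In the pooled and replicate 1 lists, tRNA genes in clusters were counted more often than lone ones. Chaining starts up to 1000 bp apart gave 175 loci: 107 with 1 gene, 42 with 2, 16 with 3 and 10 with 4 or more. In the pooled list 57 of the 107 lone genes (53.3%) had a summit, against 138 of the 183 genes in larger loci (75.4%). The values were 53.3% and 80.9% in replicate 1 and 51.4% and 51.9% in replicate 3, so the difference was not present in replicate 3. One summit can count for several clustered genes, and the 195 genes had 125 distinct best summits between them, with 120 genes sharing theirs.

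**Figure D4:**
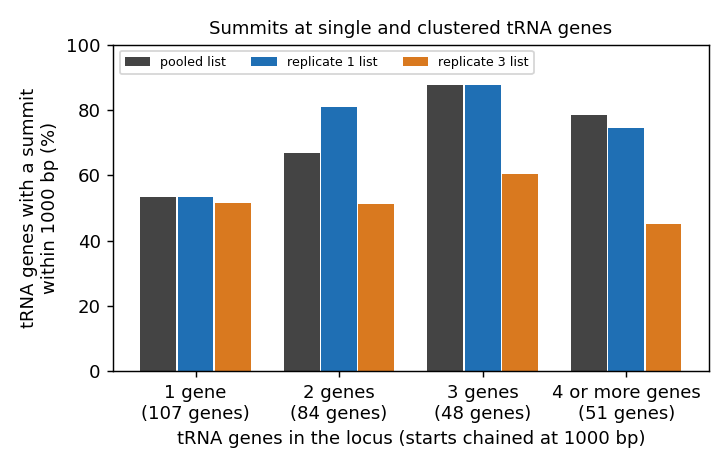
Share of tRNA genes with a summit within 1000 bp (vertical, percent) by the number of tRNA genes in the locus (horizontal), in the pooled, replicate 1 and replicate 3 lists. Genes alone in a locus stand between 51.4% and 53.3% in all 3 lists, while genes in loci of 3 reach 87.5% in the pooled and replicate 1 lists and 60.4% in replicate 3.

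None of the 10 loci with 4 or more genes had a reproducible summit, although all 10 had a pooled one. Of all 175 loci, 17 had a reproducible summit and 113 (64.6%) a pooled one. Over only 10 loci, a count of none does not set them apart from 17 of 175. Loci with more genes also hold more sequence in which a summit can count. Of the 5 loci with the most genes, a locus of 7 genes for isoleucine and leucine inside ATP8A, on 2R, had pooled summits at 6 genes, with a best rank of 18942. The other locus of 7, for arginine (TCG) and serine (CGA) on X, had a summit at 1 gene in each of the 3 relaxed lists. A locus of 6 cysteine and lysine genes inside Cht7, a chitinase gene on 3L, had a summit at all 6 genes in all 3 lists, with best ranks of 4412 pooled, 4984 in replicate 1 and 5034 in replicate 3. The 6 genes for asparagine and arginine (ACG) on 3R had 1 pooled summit of rank 11779 and 1 in replicate 1, of rank 6558, and none in replicate 3. The 5 genes inside EcR, the ecdysone receptor gene, had a pooled summit at 4 genes, of rank 19915, and none in replicate 3.

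A stricter count took only genes with no start of any other gene, tRNA genes included, within 1000 bp. Of 69 such tRNA genes, 4 had a reproducible summit, 37 (53.6%, 41.2 to 65.7) a pooled one, 36 (52.2%, 39.8 to 64.4) one in replicate 1 and 33 (47.8%, 35.6 to 60.2) one in replicate 3. Protein-coding genes with 1 start and no other start nearby numbered 5648, and 7.45%, 39.5%, 40.0% and 40.2% of them had one. With any number of starts of their own, 7219 protein-coding genes had no start of another gene nearby, and 46.3%, 46.9% and 46.9% of them had a summit in the pooled, replicate 1 and replicate 3 lists. In the pooled and replicate lists the shares of lone tRNA genes were above both, but in replicate 3 by little over the latter. The intervals of both replicates include the values of both sets. In the reproducible list the share of lone tRNA genes was 5.80% (1.60 to 14.2), below the 7.45% and 11.1% of the 2 protein-coding sets. That interval includes both values. Of the 100 tRNA genes with a start of another class within 1000 bp, 13 had a reproducible summit, against 9 of the 190 without. In the pooled list the shares were 70.0% and 65.8%.

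By amino acid, the pooled share ran from none to all, over few genes each. Over all tRNA genes the shares were 67.2%, 70.7% and 51.7% in the pooled, replicate 1 and replicate 3 lists, against 54.7%, 56.1% and 53.3% of all genes. All 17 alanine and all 5 histidine genes had a pooled summit, as did 11 of 12 glutamine, 9 of 10 asparagine and 17 of 19 glutamate genes. Genes of 1 locus can share a summit, and the 10 asparagine genes lie in 5 loci and the 19 glutamate genes in 8. Among amino acids with more than 1 gene, the smallest shares were 2 of 6 elongator methionine, 5 of 14 aspartate and 3 of 8 phenylalanine genes. The replicates did not keep this order: asparagine had 9 of 10 genes in replicate 1 and 2 of 10 in replicate 3, arginine 16 and 6 of 26, and isoleucine 11 and 5 of 11. For proline the direction was opposite, with 8 of 17 genes in replicate 1 and 11 in replicate 3.

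**Figure D5:**
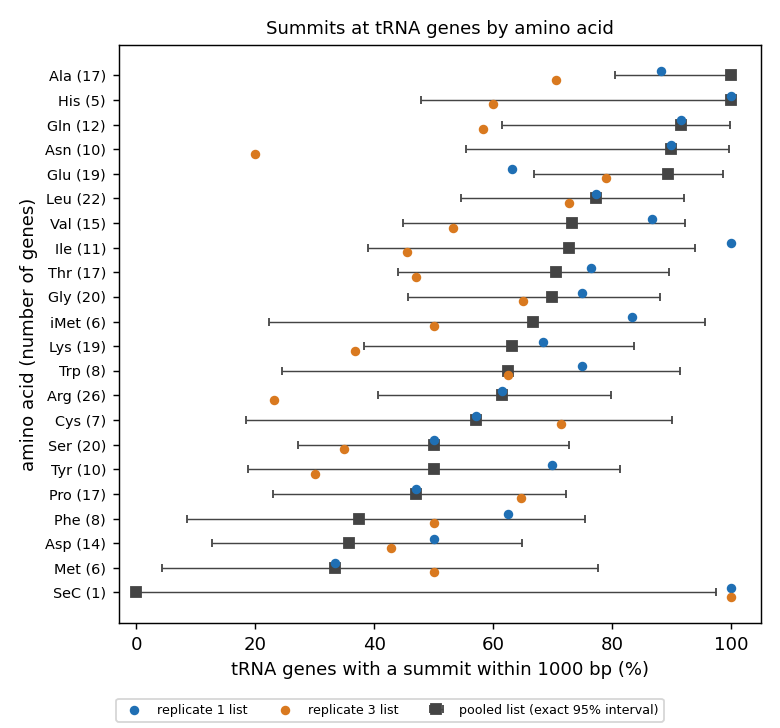
Share of tRNA genes with a summit within 1000 bp (horizontal, percent) for each amino acid (vertical, gene number in brackets), with the pooled list as squares with exact 95% intervals and each replicate as points. The pooled shares run from 0 for the single selenocysteine gene to 100% for alanine and histidine, and the intervals of most amino acids overlap.

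Wide coverage and strong peaks did not always go together. Histidine, with all 5 genes covered, had 2 reproducible genes (best rank 2046), and glutamine had 1 (rank 2462). Alanine had no reproducible gene, and its best summit, 322 bp downstream of the start of Ala-TGC-2-1, had rank 4228 in the pooled list, 3392 in replicate 1 and 10935 in replicate 3. The best summit of asparagine, at Asn-GTT-1-3, had rank 10378 and no counterpart in replicate 3. Serine, lysine, cysteine and methionine were also without a reproducible gene, with best pooled ranks of 4512 at Ser-TGA-1-1, 4412 at Lys-CTT-1-12 and Cys-GCA-1-3 and 5296 at Met-CAT-1-2. Glycine had 3 reproducible genes, the most of any amino acid.

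The initiator methionine tRNA, which starts every protein, is encoded by 6 genes. Of these, 4 had a pooled summit, 5 one in replicate 1 and 3 one in replicate 3, and the best pooled rank was 10108, at iMet-CAT-1-4. The single selenocysteine gene, SeC-TCA-1-1, had no pooled summit but one in each replicate, at 442 bp upstream (rank 15519) and 726 bp upstream (rank 21826), so the replicates did not share a position. By anticodon, lysine had a pooled summit at 11 of 13 CTT genes and 1 of 6 TTT genes, but in replicate 3 at 5 of 13 and 2 of 6. Proline had a pooled summit at none of 5 CGG genes and 4 of 5 TGG genes, and in replicate 3 at 1 and 4. The counts for these genes stand beside 67.2%, 70.7% and 51.7% of all tRNA genes in the pooled, replicate 1 and replicate 3 lists. The pairs of anticodons were chosen after their values were seen, and their differences were not tested.

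Identical copies may bear on what the lists can hold, since reads that lie wholly inside identical genes cannot be placed uniquely. The 290 genes have 95 distinct sequences, 52 genes have a sequence found once in the assembly, and the commonest sequence has 13 copies. A pooled summit was found at 53.8% of genes with a unique sequence, 70.7% of those with 2 to 4 copies and 70.0% of those with 5 or more. In replicate 3 the shares were 51.9%, 41.4% and 55.0%, with no such step. How reads with several placements were treated is not given in the sources used here, and the part of copy number in these shares was not tested.

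By arm, the pooled share was 79.6% of 98 tRNA genes on 2R, against 54.3% of all genes there, and 41.7% of 24 on X, against 54.9%. On 2L, 3L and 3R it was 65.9%, 62.5% and 63.3%, against 51.6%, 56.7% and 55.2%. In replicate 3 the order differed: 33 of 48 genes on 3L (68.8%) and 58.5% on 2L came before 2R, 3R and X. On 2R it was 49 of 98 genes, on 3R 49.4% and on X 5 of 24 (20.8%). Among all genes the replicate 3 shares on 3L, 2L, 2R, 3R and X were 55.7%, 53.8%, 51.6%, 55.4% and 48.7%. In replicate 1 the tRNA shares on 2L, 2R, 3R and X were 68.3%, 84.7%, 73.4% and 37.5%, against 53.1%, 56.7%, 56.3% and 55.6%. On 3L replicate 1 had 27 of 48 genes, against 57.6%. On X the tRNA share was thus below that of all genes in all 3 lists, over only 24 genes. An intron was annotated in 16 genes, of which 2 had a reproducible and 8 a pooled summit.

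The letters of the forkhead motif were about as frequent at pooled summits near tRNA genes as at all pooled summits, and the replicates moved in opposite directions. TNTTTAC, searched on either strand up to 100 bp to each side of a summit, was in 38 of 178 pooled summits near a tRNA gene (21.3%) and in 20.1% of all pooled summits. It was in 4 of the 17 reproducible ones, against 26.8% of all reproducible summits. TGTTTAC, which TNTTTAC includes, was in 6.18% against 5.93% of pooled summits, and in none of the 17 against 7.43%. In replicate 1 TNTTTAC was in 24.6% against 20.4%, and in replicate 3 in 17.0% against 19.3%. Within 50 bp the shares were 16.9% against 10.97% in replicate 1 and 8.89% against 10.4% in replicate 3.

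Other measures of the summit sequence were close to those of all summits, apart from the B box. TATCGATA, a motif bound by the boundary factor BEAF-32 and by DREF, was in 1.69% of the pooled summits near a tRNA gene and in 1.51% of all. The mean GC content of the same windows was 40.0% ± 8.25 (SD, n = 178 summits), against 40.0% for all pooled summits, and 34.4% ± 6.26 (SD, n = 17) for the reproducible ones, against 34.0%. The B box letters GTTCNANNC were in 14.0% of pooled summits near a tRNA gene against 5.95% of all, which follows in part from the choice of windows, since a tRNA gene lies near. They were in 17.9% in replicate 1 and 12.6% in replicate 3.

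Within the genes, the B box pattern was found in 271 (93.4%) and the A box pattern in 224 (77.2%), on the gene's own strand, and both in 205. The genes without the B box letters are the 12 alanine AGC genes, all 6 initiator methionine genes and Thr-AGT-2-1. All 12 alanine AGC genes and 4 of the 6 initiator methionine genes had a pooled summit, and Thr-AGT-2-1 had none. The pooled share was 67.2% of all tRNA genes and 54.7% of all genes. Each replicate had a summit at 10 of the 12 alanine AGC genes. The part of the B box letters in these counts was not tested.

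At the cut of 1000 bp, the last genes inside were Arg-ACG-1-10 at 988 bp, Ala-CGC-1-1 at 992 bp and Asn-GTT-1-4 at 998 bp, with ranks of 11779, 20203 and 19915. The first outside were Thr-AGT-2-1 at 1002 bp, Met-CAT-1-1 at 1005 bp and Ile-TAT-1-1 at 1018 bp, with ranks of 25846, 6175 and 13462. Met-CAT-1-1 thus has a stronger summit than all 3 genes inside.

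Genes whose products act on tRNA genes and tRNAs were counted from 2 lists. Of 19 genes for RNA polymerase III and its factors, 5 had a reproducible summit and 15 a pooled one, with 17 and 13 in replicates 1 and 3. Bdp1 and Brf, subunits of TFIIIB, had signals of 777 (rank 176) and 736 (rank 204), and Polr3E, a polymerase subunit, had 511 (rank 404). The summit of Bdp1 was 61 bp from its own start and 68 bp from that of CG6565, while that of Brf was 176 bp from its own start and 81 bp from that of sds22. Pbp95, which encodes a subunit of the complex that recruits the polymerase to U6 genes, had a signal of 155 (rank 2704). The summit of Polr3E was 287 bp from its own start and 178 bp from that of CG10584, and that of Pbp95 was 510 bp from its own and 80 bp from that of CG10435.

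Aminoacyl-tRNA synthetases, which load each tRNA with its amino acid, formed the other list. Of 20 cytoplasmic synthetase genes, 9 had a reproducible summit, 16 a pooled one, 17 one in replicate 1 and 16 one in replicate 3. SerRS had a signal of 586 (rank 300), IleRS 528 (rank 382), ThrRS 422 (rank 572) and GluProRS 403 (rank 619). AsnRS, ValRS, AspRS, MetRS and beta-PheRS had signals of 137 to 217. The summit lay nearer to a neighbour's start for SerRS (15 bp to CG17260, 23 bp to its own), AspRS (187 bp to Nmda1, 299 bp to its own) and ValRS (85 bp to Kdm4B, 428 bp to its own). LeuRS, LysRS and TyrRS had no summit in any list. These are protein-coding genes, to be read beside the 20.8% and 58.4% of all protein-coding genes in the reproducible and pooled lists. The shares of all protein-coding genes in replicates 1 and 3 were 60.1% and 56.2%.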

How the data were processed

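ChIP-seq peaks of 2 biological replicates were analysed; per the labels, these are separate embryo samples of 1 line, and nothing was averaged. Per the deposited file descriptions, the authors made 4 narrowPeak lists on dm6: 1 per replicate, 1 pooled, and a reproducible list chosen by irreproducible discovery rate (IDR). The deposited score per peak is the caller's signal value, which served only for ranking inside each list. The −log10 q-value, as deposited, was used to select peaks with a q-value of at most 0.05 (10181 pooled, 11489 in replicate 1, 8373 in replicate 3). For the aligner, peak caller, IDR threshold and treatment of repeated reads, details were not given in the sources used here. Control data were not analysed here.

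Summits were set against Ensembl 115 (FlyBase 6.54) starts, with every annotated start of a gene unless 1 start is stated, in Python (3.11.15) using pandas (2.3.3), numpy (2.4.6), scipy (1.17.1) and, for plots, matplotlib (3.10.9). Counting was checked on simulated summits. With 1 group, no test was made: counts stand beside the same share over all genes, with Clopper-Pearson intervals. tRNA genes named were those with a reproducible summit, the best of each amino acid, those next to the distance limit, the 5 largest loci, and initiator methionine and selenocysteine genes. Thr-AGT-2-1 is also named for its missing B box letters, and loci, anticodons and lone genes were singled out after their values were seen. The members, the 2 gene lists and the splits were chosen with earlier results of these data known. Alternatives were other windows, lists, locus chaining, q-values and distance measures. One gene of the RNA polymerase III list is counted but its values are not reported here.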

Additional observations from a re-analysis of the deposited data

How the results depend on the processing

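Depth is unknown and peak widths are mostly set. No paired analysis was possible because there is 1 group and no comparison between groups. Of the alternatives, 28 values stayed within 1.5 times the main count, or within the spread, 17 moved and 1 changed sign. For medians and shares the spread is the SD of the same 2 replicates, so single-replicate values are no independent check against it. The 150 genes of replicate 3 count as staying. Their share (51.7%) is nevertheless slightly below that of all genes (53.3%), unlike the pooled share. It is level with that of all other genes given 1 start each (51.4%). The 22 reproducible genes were 12 within 500 bp, 45 within 2000 bp and 12 with the stricter 1958 peaks, and 24 to 27 in single replicates. The 195 pooled genes were 128 within 500 bp, 72 at a q-value of at most 0.05 and 150 to 205 in single replicates, and the 124 genes in both replicates were 69 within 500 bp. At that q-value the 113 loci with a pooled summit were 47, the 165 genes whose nearest summit was nearer to a tRNA start were 49, the 125 genes without another start were 43, and the median rank of 13731 was 4677.5. In single replicates these were 99 to 116 loci, 120 to 185 genes, 88 to 134 genes and ranks of 11404 to 11896, while the median distance of 361 bp was 288 to 432.5 bp and the TNTTTAC share was 17.0% to 24.6%. That share, 21.3%, was 10.7% within 50 bp and 43.8% within 250 bp, by the construction of the window. The share of pooled peaks near tRNA genes in the strongest 10000 minus that in the weakest 10000, -0.14 percentage points, was -0.1 within 500 bp, -0.23 within 2000 bp, and 0 to 0.04 in single replicates, where replicate 3 alone turned the sign; the cause was not tested.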

Other observations

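Other genes transcribed by RNA polymerase III gave no common pattern. None of the 100 5S ribosomal RNA genes had a reproducible summit (exact 95% upper limit 3.62%), against 18.1% of all genes. A pooled summit was at 3 of them, against 54.7% of all genes. The 5S genes are near-identical copies in an array, which the interval takes as independent, and the part of read placement was not tested. Among the spliceosomal U6 genes, U6:96Ab and U6:96Ac shared a reproducible summit of signal 167 (rank 2502), 81 bp upstream of U6:96Ac and 442 bp downstream of the start of U6:96Ab, while U6:96Aa had no summit in any list. The shared summit had rank 3695 in replicate 1 and 2119 in replicate 3. The transcription regulator RNA 7SKa had a pooled summit of rank 4733, RNase MRP RNA one of rank 10911 and RNase P RNA one of rank 26403. The related gene 7SKb had a pooled summit of rank 21343 and none in either replicate. U6atac had no pooled summit, but one in replicate 1 (rank 28576) and one in replicate 3 (rank 17458). Neither gene for the signal recognition particle RNA (7SL) had a pooled summit.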
